A study of Mus musculus with 9 samples.

Results

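The 10 genes described here encode CD27 and relatives of the tumour necrosis factor (TNF) receptor family that act as costimulators of T cells, 7 receptors (Cd27, Tnfrsf4, Tnfrsf9, Tnfrsf18, Tnfrsf1b, Tnfrsf25 and Tnfrsf8) and 3 ligands (Cd70, Tnfsf14 and Tnfsf8). They were chosen by gene symbol in the annotation of the array, and 1 of the 32107 probe sets tested measured each of the 10. All 10 entered the test, since no filter on low values was used.

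Receptors of this family are proteins of the cell surface that are engaged by trimeric ligands of the TNF family. The costimulatory members recruit TRAF adaptor proteins and ubiquitin ligases, which activate the NF-kB transcription factors and kinase cascades and promote survival and expansion of T cells after antigen contact. CD27 is carried by naive T cells and is engaged by CD70, whereas OX40 (Tnfrsf4), CD137 (Tnfrsf9) and GITR (Tnfrsf18) are known as receptors that increase on T cells after activation.

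RNA came from pmel1 CD8+ T cells, which carry a transgenic receptor for the melanocyte protein gp100, sorted from the spleen by Thy1.1 and CD8. Naive congenic recipients had been given these cells and 100 µg of hgp100 peptide by vein, and the cells were taken on day 4 from single mice, 3 in each group. The combination group was given 200 µg of the CD27 agonist AT124 with 100 µg of anti-PD-1 (RMP1-14) and 100 µg of anti-PD-L1 (10F.9G2). The anti-CD27 group was given AT124 with 200 µg of isotype control antibody, and the anti-PD-1/L1 group both blocking antibodies with 200 µg of isotype control antibody, so that each mouse received 400 µg of antibody. No group given peptide with isotype control alone was analysed here, and every difference is between antibody treatments. The transferred cells are a monoclonal population in recipients that keep their own T cells, which limits them as a model of an endogenous response.

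Levels are the deposited log2 values of the arrays, and a difference of 1 on this scale is a factor of 2. Differences were tested with limma over all 9 arrays, with Benjamini-Hochberg adjustment over all 32107 probe sets and calls at adjusted p under 0.05. Levels of different probe sets are not comparable with each other. In RNA of bulk cells, fewer cells that express a gene and less RNA per cell cannot be told apart.

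The 3 anti-PD-1/L1 arrays stood apart from the other 6. The 23 background control probe sets averaged 3.25 ± 0.04 in the combination and 3.27 ± 0.06 in anti-CD27, against 4.06 ± 0.08 in anti-PD-1/L1 (SD, n = 3 each), and all 23 were highest in the last of these. The positive control probe sets averaged 6.81 ± 0.04, 6.70 ± 0.02 and 5.75 ± 0.19 in the same order of groups. In that order, the 8 bacterial and phage control probe sets averaged 8.60 ± 0.11, 8.60 ± 0.02 and 9.75 ± 0.12. The ERCC control probe sets averaged 2.84 ± 0.03, 2.83 ± 0.03 and 3.58 ± 0.05. By an exact permutation test over arrays, p was 0.1 for anti-PD-1/L1 against either other group in each of these kinds of control. No smaller value is possible with 3 arrays a side. The other 6 arrays were not alike in every control either. The positive controls did not overlap between the combination (6.76 to 6.83) and anti-CD27 (6.68 to 6.72), and the negative controls averaged 2.78 in the combination and 2.92 in anti-CD27, each with an exact permutation p of 0.1. Between the combination and anti-PD-1/L1, the negative controls averaged 2.78 and 2.77 (exact permutation p = 0.9). The scan or hybridization batch is not given in the labels, so that such a batch and this treatment cannot be told apart. The mean level of 8 markers of CD8 T cells was 9.52 to 9.61 on the combination arrays, 9.70 to 9.72 on those of anti-CD27 and 8.44 to 8.97 on those of anti-PD-1/L1. Of 50 measured marker genes of 9 other cell types, 1 was called in the combination against anti-CD27 (Prdm1, higher by 0.44). Against anti-PD-1/L1, 6 of the 50 were called higher and 34 lower in the combination, beside 19.1% and 52.9% of all probe sets. The 6 were Cd22 of the B cell list, Xbp1 and Prdm1 of the plasma cell list, Cd74 of the dendritic cell list, and Cd68 and Ly6c2 of the macrophage and monocyte list, by 0.20 (Prdm1) to 3.54 (Cd74), and their part in the results was not tested. The mean levels of these lists on the combination arrays were 3.48 to 3.53 (B cell), 4.04 to 4.14 (plasma cell), 4.06 to 4.13 (dendritic cell) and 4.50 to 4.55 (macrophage and monocyte).

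The level of a probe set was set against the 5222 negative control probe sets of the same array. A gene is called not clearly above background in a group where its mean lay under the 95th percentile of the negative controls, which averaged 5.61 in the combination, 5.83 for anti-CD27 and 5.98 for anti-PD-1/L1. This limit was chosen after the values had been seen. Cd27, Tnfrsf18 and Tnfsf14 were above it in every group. Tnfrsf1b was above it in the combination and anti-CD27, and Tnfrsf4 in anti-CD27 by a margin of 5.85 against 5.83, with 1 of 3 arrays above. Tnfrsf9, Tnfrsf25, Tnfrsf8, Tnfsf8 and Cd70 were not clearly above background in any group. Cd70 exceeded 22.9% of the negative controls in the combination, 21.1% for anti-CD27 and 35.2% for anti-PD-1/L1.

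**Figure D1:**
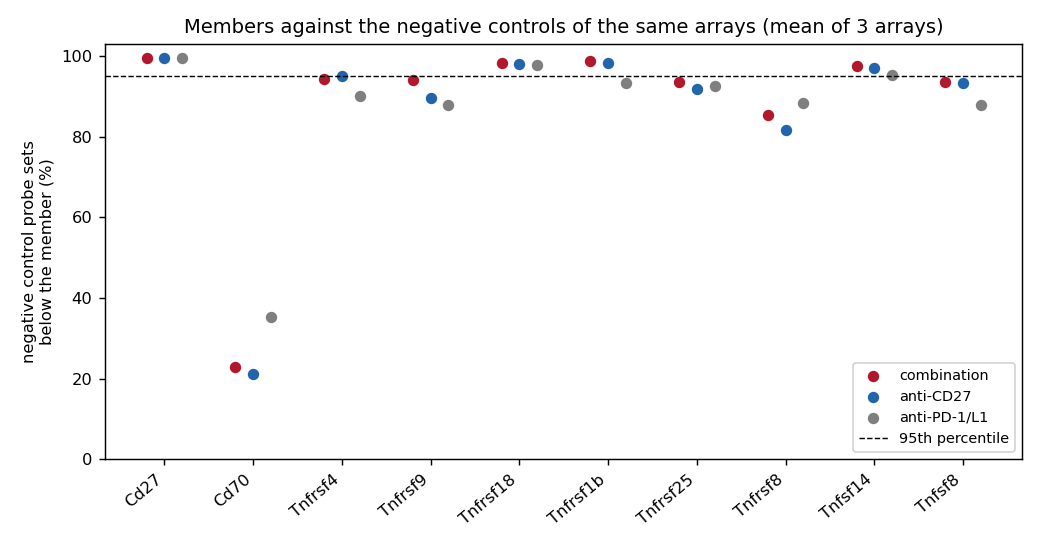
Share of negative control probe sets (%, y axis) that lay below each gene, as the mean of 3 arrays for the combination (red), anti-CD27 (blue) and anti-PD-1/L1 (grey), with the 95th percentile dashed. Cd27 exceeded 99.5% of the negative controls in the combination, and Cd70 22.9%.

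Cd27 shares its probe set with the microRNA gene Mir8113, which lies within Cd27 and which no other tested probe set names. Its values therefore cannot be assigned to the receptor transcript alone. The mature microRNA is shown because this 1 probe set names it together with Cd27. The 250 bases before the annotated start of Cd27 are shown as its upstream window. Nothing in the sources used here says that the probe set covers them. Sequences in this report are from RefSeq on GRCm38.p6, and the build behind the array is not given in the sources used here. The microRNA lies at chr6:125234756-125234777 on the minus strand with its seed (bases 2 to 8) in capitals, and the window of Cd27 at chr6:125237028-125237277 on the minus strand.
mmu-miR-8113: cAGGAGAGucaggggcaaguag
Cd27: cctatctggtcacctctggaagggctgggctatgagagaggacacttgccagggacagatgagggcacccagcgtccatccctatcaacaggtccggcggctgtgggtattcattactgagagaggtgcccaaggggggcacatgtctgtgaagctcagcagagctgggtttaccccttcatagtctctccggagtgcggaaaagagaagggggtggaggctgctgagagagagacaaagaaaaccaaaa

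Cd27 had levels of 9.98, 10.10 and 9.88 in the combination, 9.88, 9.91 and 9.93 in anti-CD27, and 9.73, 9.32 and 9.07 in anti-PD-1/L1. Arrays of the 2 groups given the agonist antibody against this receptor overlapped, while the anti-PD-1/L1 arrays were all lower and spread most widely. Against anti-CD27, the combination differed by 0.08 ± 0.15 (log2 difference ± SE), with a 95% confidence interval of -0.25 to 0.41 and an adjusted p of 1 in limma. This SE pools the spread of all 9 arrays, and the SD was 0.34 in anti-PD-1/L1, against 0.11 in the combination and 0.03 in anti-CD27. With only the 6 arrays compared, the SE was 0.06 and Cd27 was again not called (limma adjusted p = 0.601).

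Tnfrsf4 encodes OX40, a receptor that sustains survival and expansion of activated T cells. Its levels were 5.55, 5.36 and 5.55 in the combination, 5.73, 5.99 and 5.82 in anti-CD27, and 5.07, 5.05 and 5.04 in anti-PD-1/L1. The 3 groups did not overlap on any array, with anti-CD27 highest and anti-PD-1/L1 lowest. The combination was 0.36 ± 0.08 below anti-CD27, which did not pass the threshold (limma adjusted p = 0.0747). The probe set was called in this comparison after quantile normalization (adjusted p = 0.0495), without the lowest 50% of probe sets (adjusted p = 0.0416) and with array weights (adjusted p = 0.0146).

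Tnfrsf9 encodes CD137, a costimulatory receptor of activated CD8 T cells. Its levels were 5.39, 5.25 and 5.51 in the combination, 4.95, 5.10 and 5.10 in anti-CD27, and 4.64, 4.85 and 4.90 in anti-PD-1/L1. Here the combination was highest, and again no 2 groups overlapped. The combination was 0.33 ± 0.09 above anti-CD27 (limma adjusted p = 0.16), with no group clearly above background, so no fold is given. It was called with array weights (adjusted p = 0.0317) and when the mean of the positive controls entered as a covariate (adjusted p = 0.0344).

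Tnfrsf4 and Tnfrsf9 thus lay on opposite sides of anti-CD27 in the combination, neither past the threshold. Their upstream windows are shown side by side, with matches to an NF-kB motif (kB, which is GGG, then any 2 bases, then TTTCC) and an AP-1 motif (TGANTCA), searched on both strands, in capitals. The window of Tnfrsf4 is chr4:156013445-156013694 on the plus strand. That of the second annotated start of Tnfrsf9 is chr4:150927749-150927998 on the plus strand, with a kB match that begins 43 bases and an AP-1 match that begins 15 bases before the start. The window of the first annotated start of Tnfrsf9 (chr4:150919905-150920154, plus strand) is not shown. Like that of Tnfrsf4, it holds neither motif.
Tnfrsf4: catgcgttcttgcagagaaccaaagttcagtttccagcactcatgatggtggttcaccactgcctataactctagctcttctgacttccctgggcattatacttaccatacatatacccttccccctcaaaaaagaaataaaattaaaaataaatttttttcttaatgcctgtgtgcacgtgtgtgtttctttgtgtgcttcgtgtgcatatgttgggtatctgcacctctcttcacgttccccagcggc
Tnfrsf9: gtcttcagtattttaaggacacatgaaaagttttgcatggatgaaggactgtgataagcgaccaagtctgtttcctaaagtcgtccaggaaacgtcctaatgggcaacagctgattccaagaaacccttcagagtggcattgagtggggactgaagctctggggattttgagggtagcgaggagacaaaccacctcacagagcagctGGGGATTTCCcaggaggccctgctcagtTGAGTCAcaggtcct

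Across the 11 windows of 9 of the genes, 2 held a kB match (the first start of Tnfrsf25 and the second of Tnfrsf9) and 3 an AP-1 match (Tnfrsf8, Tnfrsf9 and Tnfsf14). Of 32851 windows of the same length over all genes, 1.41% held a kB match and 6.75% an AP-1 match. These matches describe letters only, and a window without one says nothing of a factor.

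Tnfrsf18 encodes GITR, a costimulatory receptor that is also abundant on regulatory T cells. Its levels were 6.84, 6.97 and 6.92 in the combination, 7.01, 7.01 and 7.01 in anti-CD27, and 7.16, 7.01 and 7.14 in anti-PD-1/L1. The combination arrays were all lower than the anti-CD27 arrays, by a difference of -0.10 ± 0.06 that was not called (limma adjusted p = 0.759). Foxp3, which defines regulatory T cells, had mean levels of 3.43 in the combination and 3.50 in anti-CD27, neither clearly above background.

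Tnfrsf1b encodes TNFR2, a receptor for TNF that costimulates T cells. Its levels were 7.30, 7.52 and 7.38 in the combination, 7.23, 7.21 and 7.17 in anti-CD27, and 5.75, 5.42 and 5.64 in anti-PD-1/L1. It was the 1 gene of the 10 with a wide gap, between the 6 arrays of mice given the CD27 agonist and the 3 of mice that were not. The combination was 0.19 ± 0.09 above anti-CD27 (limma adjusted p = 0.557), with all 3 arrays higher. Its upstream window, shown for this gap, is chr4:145246871-145247120 on the minus strand and holds neither motif.
Tnfrsf1b: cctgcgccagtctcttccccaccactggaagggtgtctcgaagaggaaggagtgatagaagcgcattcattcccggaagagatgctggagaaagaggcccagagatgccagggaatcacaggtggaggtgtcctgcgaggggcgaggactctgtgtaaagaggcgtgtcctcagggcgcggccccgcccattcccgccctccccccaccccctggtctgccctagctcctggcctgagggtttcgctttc

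The other receptors were Tnfrsf25, which encodes DR3, and Tnfrsf8, which encodes CD30, and neither was clearly above background. Tnfrsf25 had levels of 5.23, 5.31 and 5.42 in the combination, 5.27, 5.31 and 5.30 in anti-CD27, and 5.43, 5.61 and 5.38 in anti-PD-1/L1. Tnfrsf8 had levels of 4.38, 4.41 and 4.41 in the combination, 4.28, 4.35 and 4.36 in anti-CD27, and 4.82, 4.82 and 4.95 in anti-PD-1/L1. Against anti-CD27, the combination differed by 0.03 ± 0.07 for Tnfrsf25 and by 0.07 ± 0.05 for Tnfrsf8 (limma adjusted p = 1 and 0.945).

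Among the ligands, Tnfsf14 encodes LIGHT, which binds the receptors of Tnfrsf14 and Ltbr. Its levels were 6.36, 6.37 and 6.36 in the combination, 6.36, 6.36 and 6.41 in anti-CD27, and 6.08, 5.99 and 6.09 in anti-PD-1/L1. The 6 arrays of mice given the agonist lay above the other 3, and the combination differed from anti-CD27 by -0.01 ± 0.05 (limma adjusted p = 1). Combination replicates 1 and 3 and anti-CD27 replicates 1 and 2 held an identical deposited value, which limits what this small difference shows. Tnfsf8, the ligand of CD30, had levels of 5.33, 5.33 and 5.31 in the combination, 5.58, 5.57 and 5.47 in anti-CD27, and 4.99, 4.71 and 4.61 in anti-PD-1/L1. The groups did not overlap, and the combination was 0.22 ± 0.09 below anti-CD27 (limma adjusted p = 0.484). It was called with only the 6 arrays compared (adjusted p = 0.0334), with array weights (adjusted p = 0.0273) and when the positive control mean was a covariate (adjusted p = 0.0248).

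Cd70, the ligand of CD27, had levels of 1.41, 1.51 and 1.50 in the combination, 1.40, 1.53 and 1.47 in anti-CD27, and 1.98, 1.79 and 1.67 in anti-PD-1/L1. At these levels no transcript of the ligand was clearly detected in any group, and the difference of 0.01 ± 0.08 between the combination and anti-CD27 is one between background values. Cd70 and Tnfsf14 are neighbours on chromosome 17 with 0 annotated genes between them. Of the other genes, 7 lie on chromosome 4, where Tnfrsf4 and Tnfrsf18 have 1 annotated gene between them, as do Tnfrsf1b and Tnfrsf8.

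**Figure D2:**
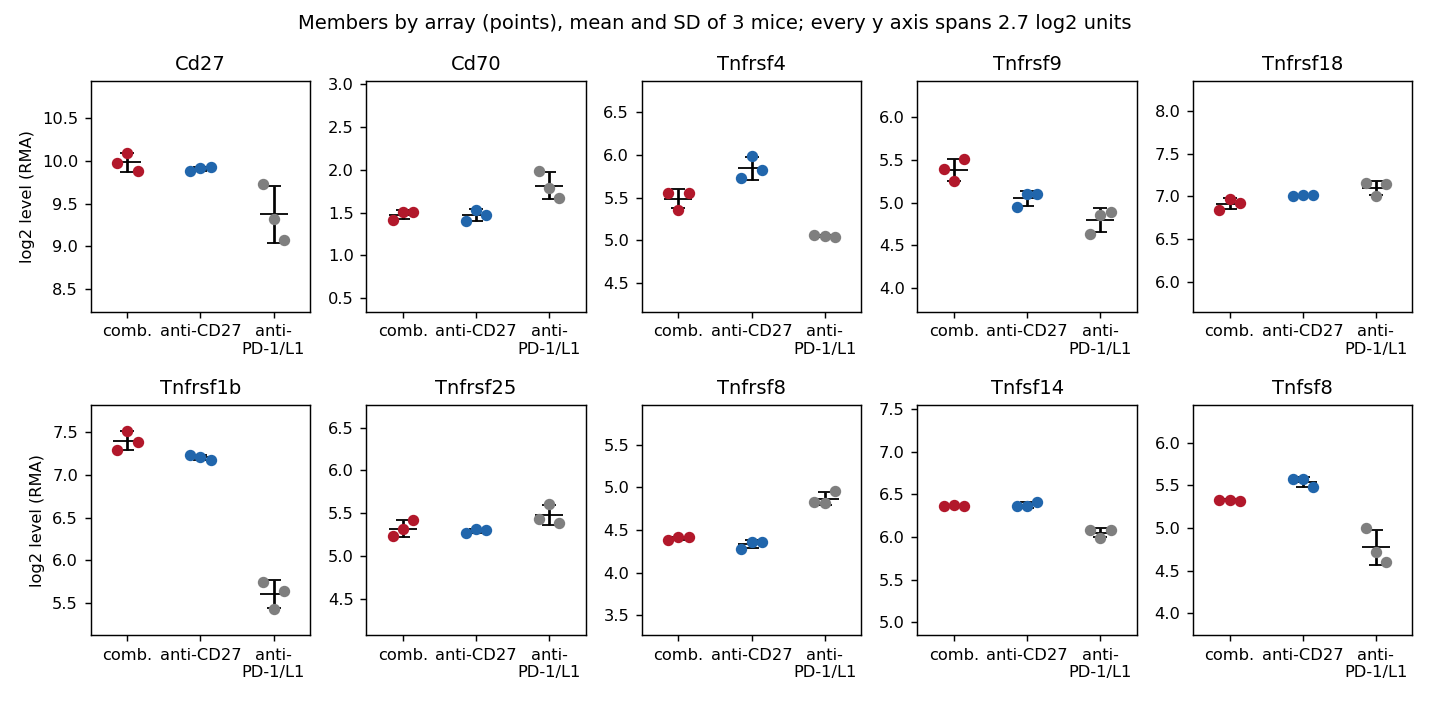
Log2 level (y axis) of the 10 genes on each array for the combination (red), anti-CD27 (blue) and anti-PD-1/L1 (grey), with the mean and SD of 3 mice as bars. Tnfrsf1b lies between 7.17 and 7.52 in both groups given the CD27 agonist and between 5.42 and 5.75 in anti-PD-1/L1.

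The combination and anti-CD27 differ by design in the blocking antibodies against PD-1 and PD-L1, which took the place of isotype control antibody. Their control probe sets differed too, as given above, so that treatment and a difference between arrays cannot be told apart. Of the 10 genes, 0 were called by limma, beside 1.73% of all probe sets tested, and 3 of 10 had an unadjusted p under 0.05 (Tnfrsf4, Tnfrsf9 and Tnfsf8), beside 3130 of 32107. The arrays were all higher in the combination for 3 genes (Tnfrsf9, Tnfrsf1b and Tnfrsf8) and all lower for 3 (Tnfrsf4, Tnfrsf18 and Tnfsf8), beside 12.1% and 8.49% of all probe sets (20.6% in either direction). The median difference was 0.02 over the 10 genes and -0.00 over all probe sets. Differences at least as large in size as that of Tnfrsf4 were found in 4.34% of all probe sets, and for Tnfrsf9 in 4.98%. By array weights 3 of the 10 were called, and by the positive control covariate 2, as named above.

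Of the other genes of the family, 0 of 21 receptors and 0 of 14 probe sets of 15 ligands were called in the combination against anti-CD27. Their largest differences were 0.28 ± 0.12 for Tnfrsf23, a decoy receptor of mice (limma adjusted p = 0.518), and 0.57 ± 0.12 for Fasl, the ligand of the death receptor Fas (limma adjusted p = 0.0535), neither clearly above background. The ligands of OX40, CD137, GITR and DR3, named here for that role, differed by -0.04 (Tnfsf4), 0.12 (Tnfsf9), 0.02 (Tnfsf18) and 0.00 (Tnfsf15), and none was clearly above background.

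Genes that act inside the cell below these receptors were lower more often than higher. Of 32 measured adaptors, regulators and NF-kB genes, 24 were lower and 7 higher in the combination than in anti-CD27, and 14 had all arrays lower against 2 with all higher, where 8.49% and 12.1% of all probe sets did. Among the 14, Traf1, Tnip1, Nfkb2 and Ikbkb held an identical deposited value on all 3 combination arrays, as 5.62% of all probe sets did. Such equal values make non-overlap easier to reach. Rnf31, Rbck1 and Ikbkg also held an identical value on these arrays, and their arrays overlapped. The median over the 32 was -0.10, beside -0.00 over all probe sets. Called were 3, all lower, beside 0.505% of all probe sets called lower, and 2 of these 3 are inhibitors of NF-kB signalling. The lists were chosen with earlier results of these data known, so that these counts describe them and do not test them.

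Tnfaip3, which encodes a ubiquitin-editing enzyme that restrains NF-kB signalling and is itself induced by NF-kB, had levels of 8.29, 8.56 and 8.03 in the combination, 9.53, 9.52 and 8.99 in anti-CD27, and 6.32, 6.38 and 6.08 in anti-PD-1/L1. No groups overlapped, and anti-CD27 was highest. It was lower in the combination than in anti-CD27 by a log2 difference of -1.05 ± 0.18, a ratio of 0.483 (limma adjusted p = 0.0251). The call was lost without combination replicate 1 or 3 (adjusted p = 0.0967 and 0.0897), without anti-CD27 replicate 1 or 2 (adjusted p = 0.129 and 0.119), and with only the 6 arrays compared (adjusted p = 0.0519).

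Tnip1, which encodes a partner of the Tnfaip3 protein, had a level of 7.21 on all 3 combination arrays, 7.53, 7.58 and 7.46 in anti-CD27, and 5.50, 5.42 and 5.42 in anti-PD-1/L1. The combination was lower than anti-CD27 by a log2 difference of -0.31 ± 0.05 (limma adjusted p = 0.0197). Its combination values were identical as deposited, so that they add nothing to the measured spread. The call was lost without any 1 combination array (adjusted p of 0.0747 to 0.0918) and without anti-CD27 replicate 1 or 2 (adjusted p = 0.104 and 0.106), and over all transcript probe sets (adjusted p = 0.0655).

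Rel, which encodes the NF-kB subunit c-Rel of lymphocytes, had levels of 7.64, 7.55 and 7.34 in the combination, 8.05, 7.92 and 7.89 in anti-CD27, and 5.59, 5.63 and 5.50 in anti-PD-1/L1. It was lower in the combination than in anti-CD27 by -0.45 ± 0.09 (limma adjusted p = 0.0417), with no overlap of arrays. Leaving out any 1 of the 6 arrays of the 2 groups ended the call, with adjusted p of 0.0583 to 0.186, as did leaving out anti-PD-1/L1 replicate 2 (adjusted p = 0.0625). It was also lost after centring (adjusted p = 0.0727), over all transcript probe sets (0.0818), with only the 6 arrays (0.0567) and with a trended, robust variance prior (0.0551). The difference stayed between -0.36 and -0.51 when 1 array was left out.

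Other genes of these lists were not called. Traf2 and Traf5, the adaptors known to bind the tail of CD27, differed by -0.06 and -0.12, and Siva1, a binding partner of CD27 that promotes cell death, by 0.58 ± 0.14 with all arrays higher in the combination (limma adjusted p = 0.103). These 3 are named for their link to CD27, after their values were seen. Among 9 survival genes 0 were called, with the largest difference of -0.41 ± 0.15 for Pim1, a kinase that promotes survival (limma adjusted p = 0.376).

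**Figure D3:**
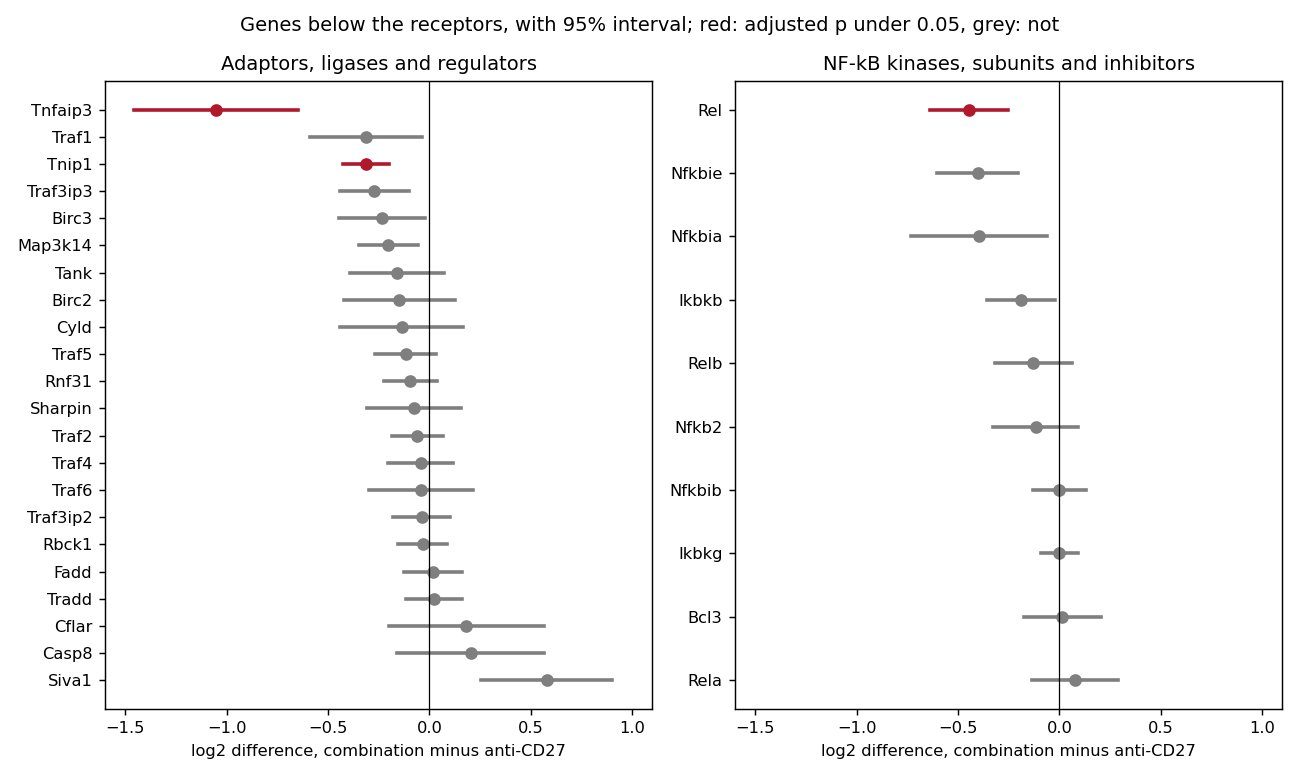
Log2 difference of the combination minus anti-CD27 (x axis) with 95% confidence interval for 22 adaptors, ligases and regulators and 10 NF-kB genes, red where the adjusted p was under 0.05. Tnfaip3 at -1.05, Tnip1 at -0.31 and Rel at -0.45 are the 3 called.

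Set against anti-PD-1/L1, the combination differs by the CD27 agonist, which took the place of isotype control antibody. The anti-CD27 group differs both by the agonist and by the absence of the blocking antibodies. Both comparisons share the 3 anti-PD-1/L1 arrays that stood apart. In the combination 9 of the 10 genes were called, 6 higher and 3 lower, beside 72.0% of all probe sets (19.1% higher and 52.9% lower). In anti-CD27 8 of 10 were called, 6 higher and 2 lower, beside 70.4% (17.2% higher and 53.2% lower). The arrays did not overlap for 9 genes in each comparison, 6 all higher and 3 all lower. Of all probe sets, 19.0% had all arrays higher and 54.2% all lower in the combination (73.3% in either direction), and 17.5% and 54.8% in anti-CD27 (72.3%). With most probe sets called, a call against anti-PD-1/L1 does not mark these genes out. With the positive control covariate, 2 and 1 of the 10 were called. This covariate largely follows the split of anti-PD-1/L1 from the other groups, so that its part and that of treatment cannot be told apart. The median difference over the 10 genes was 0.37 in the combination and 0.29 in anti-CD27, beside -0.25 and -0.26 over all probe sets.

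The difference from anti-PD-1/L1 depended on the level of a probe set, over all those tested. Between mean levels of 3 and 4 the median difference of the combination was -0.47, between 5 and 6 it was 0.09, and between 7 and 8 it was 0.53. The share of probe sets called higher in the combination was 4.00% between 3 and 4 and 43.4% between 5 and 6. It was 60.5% between 6 and 7 and 60.3% between 7 and 8. In anti-CD27 these shares were 3.09%, 39.7%, 55.3% and 54.6%. Each gene is therefore given beside the median of all probe sets of its own level band.

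Tnfrsf1b was higher than in anti-PD-1/L1 by 1.79 ± 0.09 in the combination and by 1.60 ± 0.09 in anti-CD27 (limma adjusted p = 8.78e-07 and 1.87e-06). Since anti-PD-1/L1 was not clearly above background, the mean level was at least 2.66-fold higher in the combination and at least 2.33-fold higher in anti-CD27, against the 95th percentile of the negative controls. Here and below, such a bound rests on group means of the deposited values. It makes no allowance for their spread or for another processing. The medians of its band were 0.47 and 0.38, and 10.5% and 12.7% of the band had a higher difference. With the positive control mean of each array as a covariate the call was lost, at 1.30 and 1.16 (adjusted p = 0.104 and 0.101).

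Cd27 was higher by 0.61 ± 0.15 in the combination and by 0.53 ± 0.15 in anti-CD27 than in anti-PD-1/L1 (limma adjusted p = 0.00514 and 0.0106), ratios of 1.53 and 1.45, with band medians of -0.13 and -0.22. In this band 31.4% and 25.4% of probe sets had a higher difference. The direction turned with the positive control covariate, to -1.27 and -1.16 (adjusted p = 0.0360 and 0.0311), and the part of the control difference in this result was not tested.

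Tnfrsf4 and Tnfsf8 were called higher in both groups, by 0.43 and 0.79 for Tnfrsf4 and by 0.55 and 0.77 for Tnfsf8 in the combination and anti-CD27, with band medians of 0.09 and 0.06. With the positive control covariate Tnfrsf4 was not called, and Tnfsf8 turned to -0.53 and -0.20. Tnfrsf9 was called higher by 0.59 in the combination (limma adjusted p = 0.000509) and by 0.25 in anti-CD27 (limma adjusted p = 0.0356). The second call was lost without combination replicate 1, anti-CD27 replicate 2 or 3, or anti-PD-1/L1 replicate 1 (adjusted p of 0.0531 to 0.103). These 3 genes were not clearly above background in anti-PD-1/L1, so that their differences give no fold.

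Tnfsf14 was called higher by 0.31 and 0.32, below its band medians of 0.47 and 0.38, and after quantile normalization it was at -0.11 and -0.05 with the calls lost. Tnfrsf18 was at -0.19 in the combination (limma adjusted p = 0.0167) and at -0.09 in anti-CD27 (not called), where probe sets of its band had medians of 0.53 and 0.43. With each array centred on its median, Tnfrsf18 was higher in both, by 0.18 and 0.27 (adjusted p = 0.0320 and 0.0053), and no direction can be given. Tnfrsf8 at -0.46 and -0.53 and Cd70 at -0.34 and -0.35 were called lower, close to their band medians of -0.40 and -0.36 and of -0.25 and -0.25, and both were background values. Tnfrsf25 was not called, at -0.16 and -0.18, and turned to 0.22 (adjusted p = 0.0250) and 0.18 (not called) after centring. After quantile normalization it was called lower in both, at -0.36 and -0.35 (adjusted p = 0.00677 and 0.00803). It was also called lower in both without combination replicate 3 (adjusted p = 0.0475 and 0.0481) or anti-PD-1/L1 replicate 3 (adjusted p = 0.0407 and 0.0267), and in anti-CD27 without the lowest 50% of probe sets and with the trended, robust prior (adjusted p = 0.0498 and 0.0499).

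**Figure D4:**
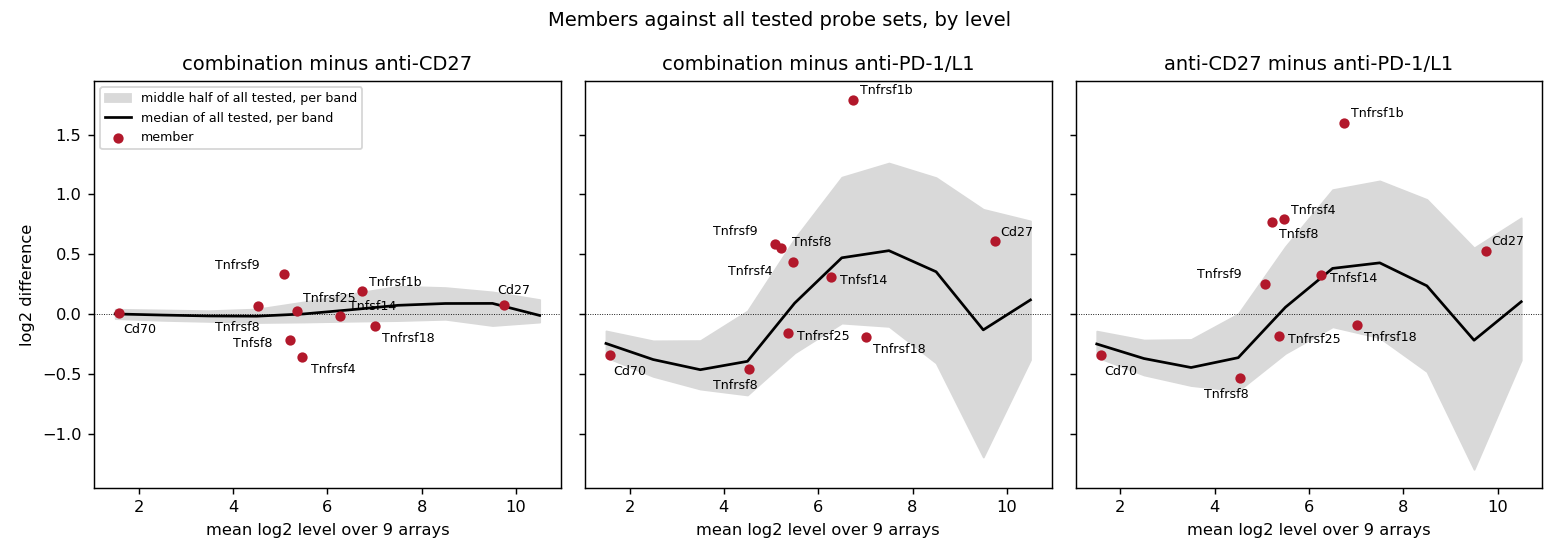
Log2 difference (y axis) of the 10 genes (red) against mean log2 level over 9 arrays (x axis) in the 3 comparisons, with the median (line) and the lower to upper quartile (grey band) of all tested probe sets by level. Tnfrsf1b lies at 1.79 and 1.60 against anti-PD-1/L1, above the grey band.

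**Figure D5:**
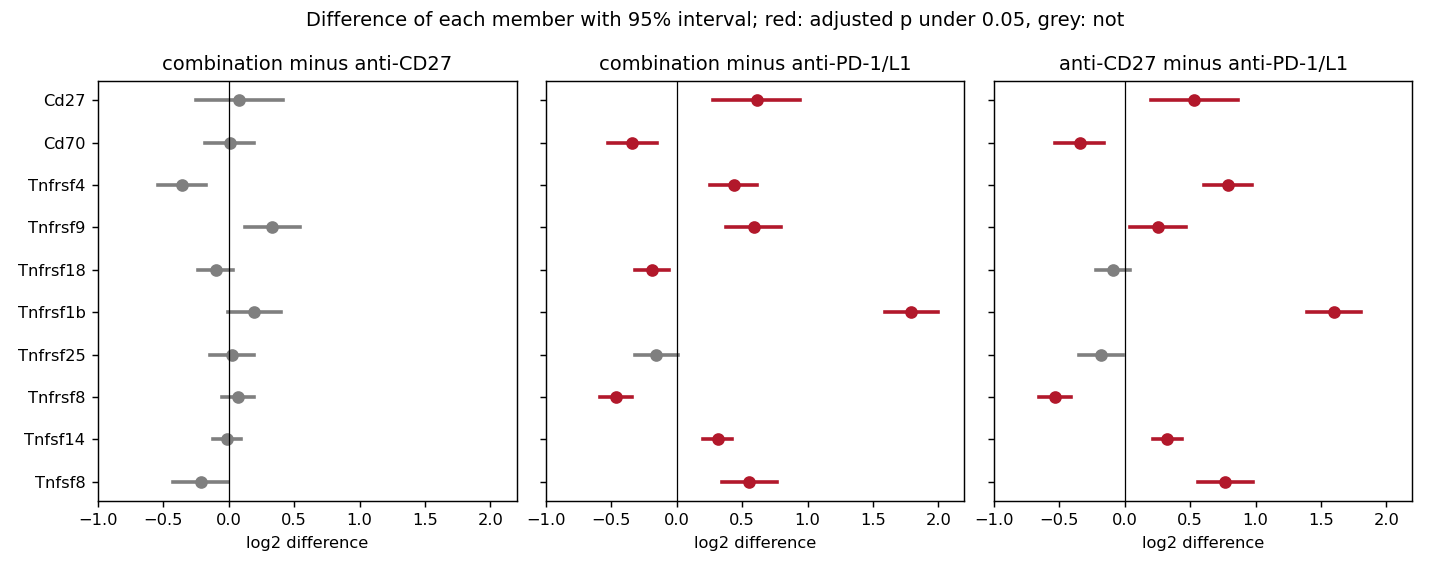
Log2 difference (x axis) with 95% confidence interval for each of the 10 genes in the 3 comparisons, red where the adjusted p was under 0.05. The combination against anti-CD27 has 0 red points, and the comparisons with anti-PD-1/L1 have 9 and 8.

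In the wider pathway, 23 of the 32 adaptor and NF-kB genes were called higher and 1 lower in the combination than in anti-PD-1/L1, and 25 higher and 1 lower in anti-CD27. Of all probe sets, 19.1% were called higher and 52.9% lower in the combination, and 17.2% and 53.2% in anti-CD27. Called higher in the combination and anti-CD27 were 60.5% and 55.3% of the probe sets with mean levels between 6 and 7. The median over the 32 was 0.84 in the combination and 0.92 in anti-CD27, where the highest median of any level band up to 11 was 0.53 and 0.43. Among the NF-kB genes, Rela, a subunit of the main NF-kB dimer, was higher by 2.56 in the combination and 2.48 in anti-CD27, and Nfkbia, the NF-kB inhibitor that NF-kB induces, by 1.65 and 2.05. Rel was higher by 1.93 and 2.38, at least 2.88-fold and 3.92-fold, since anti-PD-1/L1 was not clearly above background. Nfkb2, which encodes a subunit of the non-canonical pathway, was higher by 1.22 in the combination, at least 2.14-fold, and Nfkbie, another inhibitor, by 1.59 in anti-CD27, at least 2.48-fold. Neither was particular to that group, with bounds of 2.32-fold for Nfkb2 in anti-CD27 and 1.87-fold for Nfkbie in the combination.

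Among the adaptors and regulators, Tnfaip3 was higher than in anti-PD-1/L1 by 2.03 in the combination and 3.09 in anti-CD27. Tnip1 was higher by 1.76 and 2.08, at least 2.34-fold and 2.91-fold, and Traf1, an adaptor induced by NF-kB, by 1.63 and 1.94, at least 2.64-fold and 3.28-fold. Tank, a TRAF-binding regulator, was higher by 1.42 in the combination, without a fold because the bound was under 1, and Birc3, a ubiquitin ligase of the receptor complexes, by 1.64 in anti-CD27, at least 1.96-fold. Both were also higher in the other group, with bounds of 1.06-fold for Tank in anti-CD27 and 1.67-fold for Birc3 in the combination. Siva1 was lower in anti-CD27 than in anti-PD-1/L1 (log2 difference -0.71 ± 0.14, limma adjusted p = 0.0019) and not called in the combination (-0.13).

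Of the other receptors, 4 of 21 were called higher and 12 lower in the combination, and 5 higher and 11 lower in anti-CD27, beside 19.1% and 52.9%, and 17.2% and 53.2%, of all probe sets. The receptor counts are near those shares. Fas, a death receptor, was higher by 1.76 and 1.86 in the combination and anti-CD27, at least 2.78-fold and 2.96-fold. Tnfrsf22, Tnfrsf23 and Tnfrsf26, a cluster of mouse receptors, were higher by 1.90 and 1.68, by 1.20 and 0.93 and by 1.01 and 0.99. Tnfrsf22 was thereby at least 1.23-fold and 1.06-fold higher, and Tnfrsf23 was not clearly above background in any group. Of 14 ligand probe sets 3 were called higher and 5 lower in the combination, and 2 higher and 4 lower in anti-CD27, beside the same shares of all probe sets (19.1% and 52.9%, and 17.2% and 53.2%). Tnfsf12 and Tnfsf13 share 1 probe set, at -0.75 and -0.68 and not clearly above background. Tnfsf11, the ligand known as RANKL, at -0.53 in the combination, Tnfsf10, the ligand known as TRAIL, at 0.41 in the combination, and Eda at -0.38 in anti-CD27 were also called without being clearly above background. Ltb, which encodes lymphotoxin beta, was higher by 0.55 in anti-CD27. Its levels of 10.51, 10.54 and 10.50 in the combination also lay above those of 10.22, 10.13 and 10.08 in anti-PD-1/L1.

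Of 9 survival genes, 4 were called higher and 1 lower in each comparison, beside 19.1% and 52.9% of all probe sets in the combination and 17.2% and 53.2% in anti-CD27. The mean levels of these 9 genes lay between 5 and 9. Of all probe sets with mean levels between 5 and 6, 43.4% and 39.7% were called higher in the combination and anti-CD27. These shares were 60.5% and 55.3% between 6 and 7, 60.3% and 54.6% between 7 and 8, and 50.8% and 45.8% between 8 and 9. Pim1 was higher by 1.60 in the combination and 2.01 in anti-CD27, and Mcl1, an inhibitor of apoptosis, by 0.64 and 0.83. Bcl2, another such inhibitor, was called at 0.77 and 0.53 but gives no fold, since it was clearly above background in the combination alone and the bound there was under 1. Pim3 was at -0.65 and -0.61. The probe sets of Bcl2a1a, Bcl2a1b and Bcl2a1d are for near-identical copies and their values are uncertain.

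The genes whose levels followed those of the 10 most closely are given as a description over 9 arrays, which fall into the 3 anti-PD-1/L1 arrays and the rest, and without a test. By Pearson correlation, Tnfrsf1b was followed by Nacc1 (0.998) and Pygb (0.998), Cd27 by Cds2 (0.996) and Ggps1 (0.992), Tnfsf8 by Shisa5 (0.997) and H2-K1 (0.996), and Tnfsf14 by Rabep1 (0.998) and Zbtb44 (0.995). Tnfrsf4 was followed by Ikbke (0.977) and Orai2 (0.973), and Tnfrsf9 by Cdt1 (0.965) and Gpc1 (0.963). The other pairs were Bola2 and Ndufb8 for Tnfrsf8, Rgl2 and Hcfc1r1 for Tnfrsf18, Dnajb1 and Tmem221 for Tnfrsf25, and Tmem218 and Dcakd for Cd70, at 0.938 to 0.997.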

How the data were processed

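Per the submitters' processing notes, the authors ran RMA from oligo 1.38.0, which corrects background, normalizes and summarises probes, and they deposited log2 levels. The genome build behind the probe sets is not given in the sources used here. Of 72688 probe sets, 6732 were controls. Genes were named through the platform's annotation, and 1 probe set per distinct annotation (that of the highest overall mean) was kept, which left 32107, with no filter on low values. Group means were fitted jointly with limma 3.58.1 in R 4.3.3 to all 9 arrays (6 residual degrees of freedom), followed by its moderated test, two-sided, with Benjamini-Hochberg adjustment. The fit was tested on simulated data. Precision is limited by the 3 arrays per group. Controls were compared with exact permutation tests over arrays.

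Deposited values were often identical between arrays of a group. This held for 24.3% of tested probe sets in the combination, 33.8% for anti-CD27 and 4.30% for anti-PD-1/L1, with at least 2 equal arrays. Among the 10 genes it held for Tnfrsf4, Tnfrsf8, Tnfsf14 and Tnfsf8 in the combination and for Tnfrsf9 and Tnfsf14 in anti-CD27. The spread measured for these is then smaller than separate measurements would give. Identical values also occurred across groups. Cd27 was at 9.88 on both combination replicate 3 and anti-CD27 replicate 1. Tnfrsf18 was at 7.01 on both anti-CD27 replicate 1 and anti-PD-1/L1 replicate 2. What such shared values do to a difference between groups was not tested.

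The 10 genes, the 5 pathway lists, the 10 marker lists and the rule for named genes were chosen with earlier results of these data known. The rule named all 10 genes, up to 4 called genes per pathway list and comparison by size of change (or, in lists without a call, the gene that differed most), and for each of the 10 the 2 most alike genes by correlation among probe sets with a mean of at least 5. Traf3, Ripk1, Chuk and Nfkb1 were not analysed here. Alternatives were another normalization, filter, choice of probe sets or arrays, array weights, variance prior, covariate and the replicate number as a block.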

Additional observations from a re-analysis of the deposited data

How the results depend on the processing

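For the combination against anti-CD27, 0 of the 10 genes were called under 6 alternatives and without each array in turn (lowest and highest both 0). There was 1 call after quantile normalization, without the lowest 50% of probe sets and with only the 6 arrays compared, 2 with the positive control covariate and 3 with array weights. All probe sets called, 554 in the comparison as reported, were 1718 with only the 6 arrays, 2646 with array weights, and 164 to 1255 without 1 array (164 without anti-CD27 replicate 1 and 1255 without anti-PD-1/L1 replicate 1).

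Against anti-PD-1/L1, calls were 12399 and 11917 without the lowest 50% of probe sets, 42358 and 42213 over all transcript probe sets (both by construction of the set tested), and 2014 and 2552 with the positive control covariate, for the combination and anti-CD27. With that covariate 2 and 1 of the 10 genes were called, and the cause was not tested. Without 1 array, 8 to 10 and 7 to 9 of the 10 were called. The median difference of all probe sets, -0.25 and -0.26 as reported, became -0.03 and -0.03 after quantile normalization and 0.12 and 0.11 after centring. The split of higher and lower calls, 6136 and 16976 for the combination and 5520 and 17080 for anti-CD27, became 7715 and 8958 and 7477 and 8670 after quantile normalization, and 12946 and 5586 and 12217 and 5375 after centring.

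Of the differences of single genes, 533 kept direction and side of the threshold, 18 became called, 22 lost the call and 21 turned. For the combination against anti-CD27 these were Tnfrsf25 at -0.0090 after quantile normalization, Cd27 at -0.11 and Cd70 at -0.070 with the positive control covariate, and Cd70 at -0.0035 with array weights. Without 1 array, Cd70 lay between -0.029 and 0.039, Tnfrsf25 between -0.024 and 0.071 and Tnfsf14 between -0.022 and 0.0045. For the combination and anti-CD27 against anti-PD-1/L1, Tnfsf14 was at -0.11 and -0.045 after quantile normalization. After centring, Cd70 was at 0.035 and 0.017, Tnfrsf18 at 0.18 and 0.27, and Tnfrsf25 at 0.22 and 0.18. With the positive control covariate, Cd27 was at -1.27 and -1.16 and Tnfsf8 at -0.53 and -0.20. The cause was not tested in these.

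Same-numbered arrays deviated together no more than others, with correlations of -0.19 to 0.16, against -0.18 to 0.15 for arrays of different numbers. With 3 arrays a group this does not settle whether the numbers pair mice. With the replicate number as a block, 0, 9 and 8 of the 10 genes were called in the 3 comparisons, with 380, 22572 and 21956 probe sets in all, and Tnip1 lost its call (adjusted p = 0.0637). With 3 mice a group and 7 of the 10 genes not clearly above background in at least 1 group, small differences may have been missed.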
